A study of Mus musculus with 4 samples.

Results

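The genes described are the cadherin superfamily members that the array platform names Cdh, Pcdh, Fat, Dchs or Celsr, measured in mouse hippocampus with and without chronic fluoxetine. Members were taken by gene symbol alone, as every probeset whose single symbol begins with Cdh, Fat, Dchs or Celsr and a number, or with Pcdh. A probeset is a group of short probes for 1 transcript stretch, and 111 of the 45101 on the array were members, covering 64 of 18194 singly named genes. They comprised 39 probesets of 21 Cdh genes, 62 probesets of 35 protocadherin genes and 10 probesets of 8 giant cadherin genes (Fat, Dchs and Celsr). A further 6 probesets carried several symbols, all of the alpha protocadherin cluster, and were not counted as members. No measured value entered the rule, but the family was taken up with results of this same comparison known. The tests of its members are therefore given as a description and not as independent support.

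All mice were male DBA/2J, an inbred strain, aged 8 to 10 weeks per the labels. The control group drank untreated water (0 mg/kg per day), and the fluoxetine group received 18 mg/kg per day of this serotonin reuptake inhibitor in drinking water for 21 days. Each group had 12 mice, whose hippocampal RNA (both sides) was pooled by 6 mice, so that 2 control and 2 fluoxetine pools were each hybridised to 1 Affymetrix expression array. Pooling leaves differences between single mice unmeasured, and the spread given here is that between pools. In whole tissue, fewer cells of a type and less RNA per cell cannot be told apart.

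Cadherins are calcium-dependent adhesion proteins of the cell surface. Classical cadherins join neighbouring cells, synaptic membranes among them, and are linked to actin through catenins inside the cell. Protocadherins lack that catenin link. The clustered alpha, beta and gamma genes give single neurons a surface identity, while the delta protocadherins act in axon growth and synapse remodelling. Fat and Dchs proteins are very large atypical cadherins that bind each other across cells and act on planar polarity and the Hippo growth pathway, and Celsr proteins are seven-pass receptors of planar polarity that guide axon tracts.

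The changes that passed were in 3 genes, and the stretches around their transcription starts are shown to set out what these genes have and lack in common there. Each run is 250 bases before to 50 bases after the start, from the RefSeq table on build GRCm38.p6, written 5′ to 3′ on the gene's own strand. Capitals mark matches, on either strand, to TATAAA (the TATA box), CCAAT (the CCAAT box) and ATTTGCAT (the octamer). Matches were also sought to TGACGTCA and TGACG (the cAMP response element and its core) and to TGANTCA (the AP-1 site).
Pcdh8, chr14:79771263-79771562, minus strand: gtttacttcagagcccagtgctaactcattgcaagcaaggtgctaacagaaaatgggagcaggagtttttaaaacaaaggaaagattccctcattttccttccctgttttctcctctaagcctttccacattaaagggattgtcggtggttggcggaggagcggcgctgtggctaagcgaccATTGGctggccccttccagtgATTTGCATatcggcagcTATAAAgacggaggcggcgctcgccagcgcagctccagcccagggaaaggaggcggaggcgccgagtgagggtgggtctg
Fat4, chr3:38886690-38886989, plus strand: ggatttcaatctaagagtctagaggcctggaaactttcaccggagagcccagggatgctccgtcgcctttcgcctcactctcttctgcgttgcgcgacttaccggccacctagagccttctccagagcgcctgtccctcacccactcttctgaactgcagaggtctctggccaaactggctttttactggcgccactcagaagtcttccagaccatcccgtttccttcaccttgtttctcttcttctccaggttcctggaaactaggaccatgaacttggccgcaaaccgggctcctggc
Cdh10, chr15:18820079-18820378, plus strand: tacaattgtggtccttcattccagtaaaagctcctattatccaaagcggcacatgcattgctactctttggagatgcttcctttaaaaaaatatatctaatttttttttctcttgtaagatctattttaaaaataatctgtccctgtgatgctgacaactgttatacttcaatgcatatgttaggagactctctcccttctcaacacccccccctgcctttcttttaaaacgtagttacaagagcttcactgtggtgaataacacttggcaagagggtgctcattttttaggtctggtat

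The Pcdh8 run held 3 matches. A TATA box began 30 bases before the start, an octamer 47 bases before it and a reversed CCAAT box 68 bases before it. The Fat4 and Cdh10 runs held 0 matches to any of the 6 motifs, and Cdh10 was poorer in G and C (37.7%) than Fat4 (55.7%) and Pcdh8 (54.3%), with a median of 52.7% over 32851 runs. An octamer was found in 1.74% of all runs, a TATA box in 13.6% and a CCAAT box in 37.4%. TGACGTCA was in 1.79% of runs, TGACG, which it contains, in 20.8%, and TGANTCA in 7.81%. Of the 30 family genes measured at or above the intensity minimum, 17 had a run in the table (18 runs), of which 1 held an octamer (Pcdh8), 2 a TATA box (Pcdh8 and Pcdh15), 10 a CCAAT box, 4 TGACG, and 0 TGACGTCA or TGANTCA. A match is a description of letters and not evidence of a factor's binding. The motifs were chosen after the expression values and these sequences were seen.

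A probeset was tested if it reached the submitters' intensity minimum of 100 on at least 2 of the 4 arrays, which 49 of the 111 family probesets did, from 30 of the 64 genes. In fluoxetine pools 2 of these 49 probesets rose, both for Pcdh8, and 2 fell, 1 each for Fat4 and Cdh10, by limma with a Benjamini-Hochberg adjusted p under 0.05. That is 8.16% of the 49, read beside 1.72% of all 16938 tested probesets (1.03% higher and 0.685% lower). The 8.16% counts Pcdh8 at both of its probesets, and a Cdh10 probeset tested only through its control pools. With each gene taken at its brightest tested probeset, Pcdh8 rose, Fat4 fell and Cdh10 did not pass. Over all 9030 genes so taken 1.31% rose and 0.554% fell. No enrichment of the family was tested. At an unadjusted p under 0.05 there were 3 family probesets higher and 11 lower, where the whole table had 8.64% and 13.9%. A difference of at least 2-fold was met by both Pcdh8 probesets and by Fat4, beside 0.791% of all (0.667% higher and 0.124% lower). The other 45 family probesets did not pass, and 44 of the 49 had a log2 fold change within 0.5 of 0. With any 1 of the 4 arrays left out, limma called 0 family probesets, with 10 to 16 of them at an unadjusted p under 0.05, and 0 of all 16938. The 4 calls were also lost with no intensity filter (adjusted p 0.168 to 0.198).

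**Figure D1:**
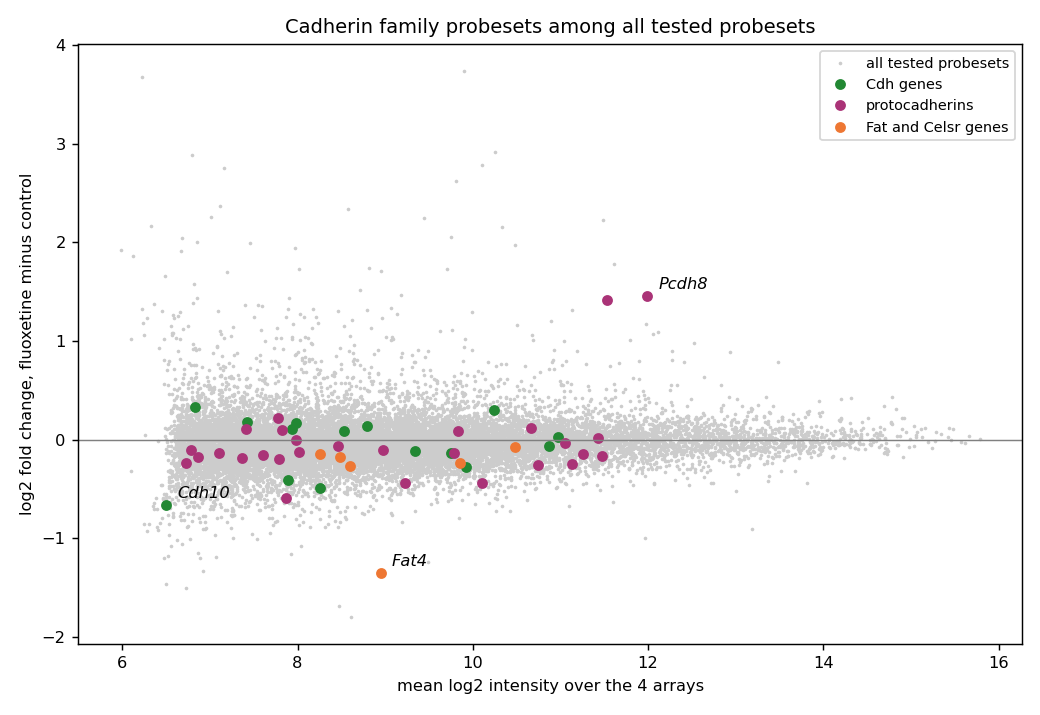
Log2 fold change (vertical axis, fluoxetine minus control) against mean log2 intensity over the 4 arrays (horizontal axis) for the 16938 tested probesets (grey) and the 49 family probesets (coloured by class). Pcdh8, Fat4 and Cdh10, the genes with a probeset that passed, are named, with 1 label for the 2 Pcdh8 points; 44 of the 49 family points lie within 0.5 of 0.

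Pcdh8, also known as arcadlin, is a delta protocadherin whose transcript is induced by neuronal activity and whose protein binds N-cadherin and promotes its removal from the synaptic surface. Its probeset 1417051_at read 1811 and 1813 in control pools, against 4399 and 5336 under fluoxetine. Its probeset 1447825_x_at read 2672 and 2266 in control pools, against 5929 and 7691 under fluoxetine. At both probesets both fluoxetine pools lay above both control pools, with no overlap. The rise was 2.67-fold at the first (log2 1.42 ± 0.11, SE, n = 2 pools per group, adjusted p = 0.0262) and 2.74-fold at the second (log2 1.46 ± 0.16, adjusted p = 0.0380). By absolute log2 change they ranked 41 and 38 among the 16938 tested probesets. Leaving out each array in turn gave 1.28 to 1.56 for 1417051_at (adjusted p 0.107 to 0.166) and 1.27 to 1.64 for 1447825_x_at (adjusted p 0.134 to 0.180). The smallest difference between any fluoxetine and any control pool was 1.28 and 1.15 on the log2 scale, against differences of 0.0023 and 0.24 between the control pools and 0.28 and 0.38 between the fluoxetine pools. The name ending of the second probeset marks probes that may match other transcripts. The Pcdh8 run printed above was the only one of 18 family runs with an octamer, a motif chosen after that sequence was seen. Any link between it and the rise was not tested.

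Fat4 encodes the giant cadherin that binds Dchs1. Its probeset 1459749_s_at read 790.3 and 794 in control pools, against 282 and 342 under fluoxetine. The control pools were nearly equal, and both fluoxetine pools lay far under them. The fall was 2.55-fold (log2 -1.35 ± 0.11, adjusted p = 0.0303), the 47th place by absolute change, with -1.49 to -1.21 when each array was left out (adjusted p 0.0893 to 0.175). The name ending of this probeset marks probes shared by several transcripts, and without probesets of that kind no tested Fat4 probeset remains. The other Fat4 probeset, 1460574_at, was under 100 on all arrays and was not tested. It read 78.6 and 53.8 in control pools, against 25.7 and 25.8 under fluoxetine, lower in both, with no fold given since all values are under the minimum. Dchs1, the known binding partner of Fat4, lay between 8.46 and 14.0 on the 4 arrays, so its level was not measured here.

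Cdh10 encodes a type II classical cadherin, a group with patterned expression across brain circuits. Its probeset 1446399_at read 109 and 119 in control pools, against 70.1 and 74.0 under fluoxetine. Both fluoxetine pools were under 100, so the fall is given as at least 1.14-fold against that minimum (log2 -0.66 ± 0.08 as measured, adjusted p = 0.0432). This probeset was tested only because its control pools passed the minimum, and its call was lost with values floored at 100 (log2 -0.19, adjusted p = 0.223) and with trend and robust settings (adjusted p = 0.0588), under which Cdh10 probeset 1460538_at passed instead (adjusted p = 0.0471). Leaving out each array gave -0.72 to -0.60 (adjusted p 0.142 to 0.198). Its probeset 1460538_at read 372 and 353 in control pools, against 252 and 263 under fluoxetine (log2 -0.49 ± 0.07, adjusted p = 0.0577), again without overlap. Its brightest probeset, 1425092_at, read 881 and 933 against 853 and 798 (log2 -0.14 ± 0.08, adjusted p = 0.357). All 3 tested probesets of Cdh10 thus lay under control in both fluoxetine pools, with 1 of the 3 past the threshold. Among all 16938 tested probesets, 34.2% were likewise lower without overlap.

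**Figure D2:**
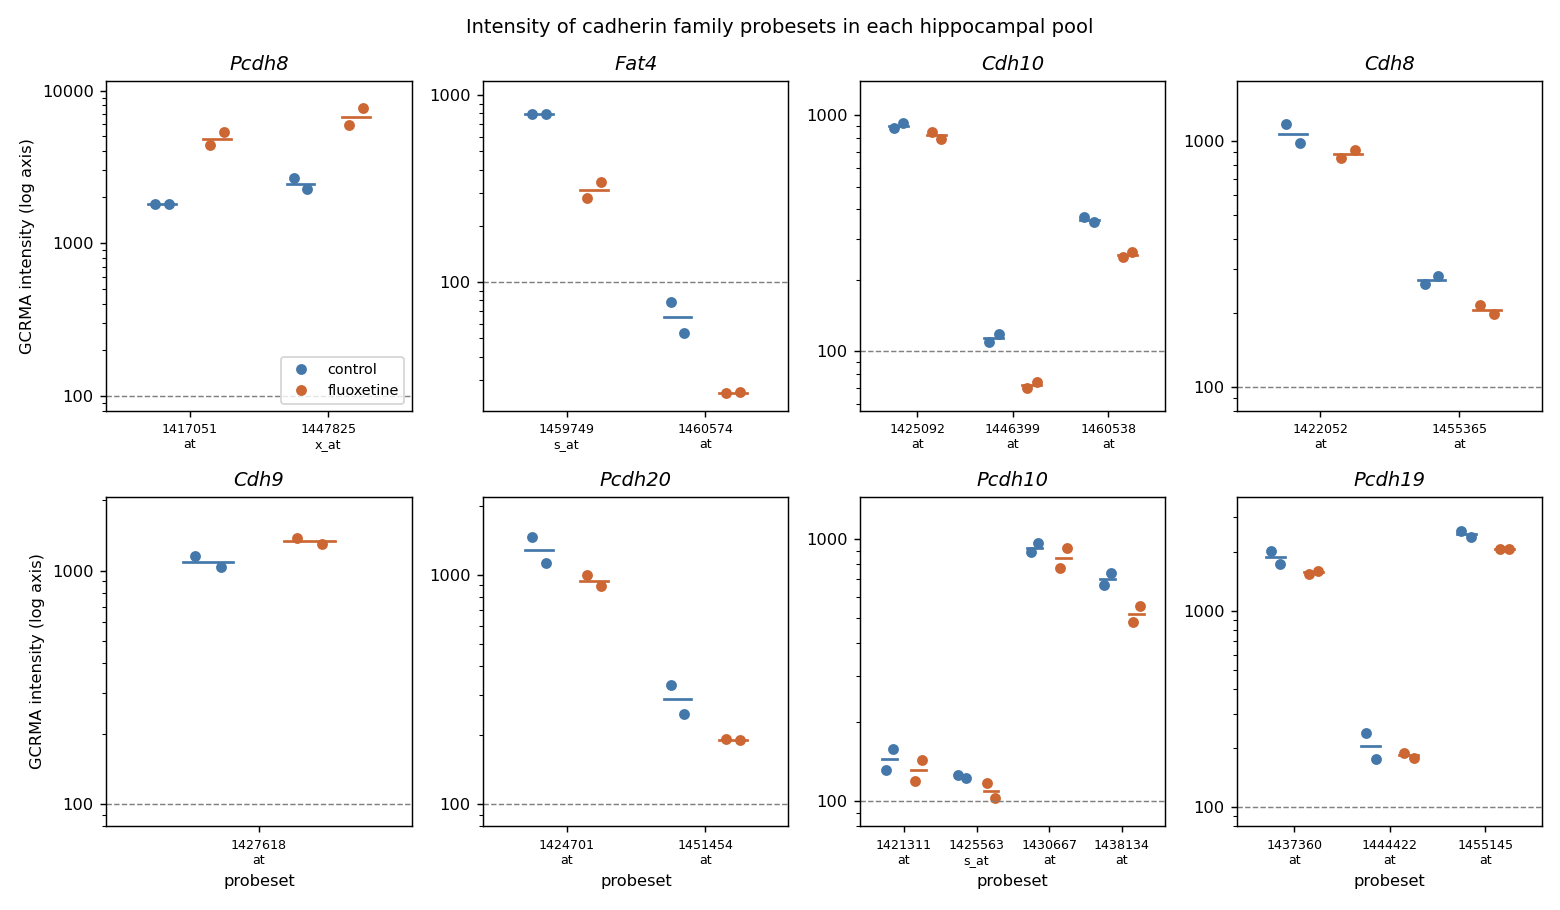
Deposited intensity (log axis) in each control pool (blue) and fluoxetine pool (orange) for the probesets of 8 family genes; pool 1 is the left point of each pair, short lines are geometric means of 2 pools and the dashed line is the intensity minimum of 100. Fluoxetine points lie above control at both Pcdh8 probesets and below it at Fat4 and at the 3 tested Cdh10 probesets.

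Among the Cdh genes, 8 of 21 were tested, at 15 probesets. The 8 genes were Cdh2, Cdh4, Cdh8, Cdh9, Cdh10, Cdh11, Cdh13 and Cdh22. Of their probesets 8 lay above 0 and 7 below, and the median log2 change was 0.02, beside -0.04 over all tested probesets. Groups did not overlap at 9 of the 15, beside 56% of all tested probesets.

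The type II genes spread in both directions. Cdh8, which is expressed in subsets of excitatory neurons, was lower in fluoxetine pools at both probesets without passing. Probeset 1455365_at read 263 and 282 in control, against 215 and 197 with fluoxetine (log2 -0.41 ± 0.08, adjusted p = 0.0899), and 1422052_at read 1164 and 979.8 against 847 and 915 (log2 -0.28 ± 0.11, adjusted p = 0.226). Groups did not overlap at either. Cdh9, a cadherin of dentate gyrus and CA3 neurons with a role in mossy fibre synapses, read 1151 and 1034 in control, against 1384 and 1295 with fluoxetine (log2 0.30 ± 0.09, adjusted p = 0.152), higher in both and likewise not past the threshold. Cdh11 differed little (log2 -0.07 ± 0.10 at its brighter probeset, -0.12 ± 0.09 at the other). Cdh22 read 166 and 156 against 211 and 157 (log2 0.18 ± 0.16, adjusted p = 0.543), a difference that came from 1 fluoxetine pool.

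Cdh2, the N-cadherin of synapses that Pcdh8 binds, was at 1875 and 2127 in control pools, against 1890.0 and 2182 under fluoxetine at 1418815_at (log2 0.02 ± 0.11, adjusted p = 0.917). Its second probeset gave 0.09 ± 0.07 (adjusted p = 0.496). At 1418815_at the pool numbered 2 was the higher in each group, and this gap between pools was larger than that between groups. Cdh4, R-cadherin, lay at the edge of detection with 98.8 and 104 in control, against 109.7 and 147 with fluoxetine (log2 0.33 ± 0.15, adjusted p = 0.289). Cdh13, a cadherin anchored in the membrane by a lipid, has no cytoplasmic part. At its brightest probeset it read 353 and 509 in control, against 464 and 470 with fluoxetine (log2 0.14 ± 0.18, adjusted p = 0.684). Its 3 tested probesets gave 0.11 to 0.16, none past the threshold, and the control pools of the brightest enclosed both fluoxetine pools.

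The 13 Cdh genes with no tested probeset included Cdh1 (E-cadherin), Cdh3 (P-cadherin) and Cdh15 (M-cadherin), which serve epithelia and muscle, and Cdh23, a tip-link protein of hair cells. Cdh1 lay between 7.01 and 13.1 on the 4 arrays. Cdh5, the cadherin of endothelial junctions, lay between 4.56 and 5.41 at both of its probesets, although other vascular genes were measured (Cldn5 at 247 to 446). A dim probeset here says nothing about the gene's presence, since its probes may perform poorly. Cdh19 came near the minimum on 1 array (81.0 and 81.1 in control, 97.1 and 53.8 in fluoxetine pools).

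Protocadherins were tested at 28 probesets of 17 genes, 20 of which lay below 0. The median log2 change was -0.13, and 71.4% lay below 0, beside 58.7% of all tested probesets and 67.3% of the whole family, protocadherins included. These shares count a gene once for each of its tested probesets. With each gene taken at its brightest tested probeset, 7 protocadherin genes lay above 0 and 10 below. In the whole family 12 genes lay above 0 and 18 below. Without Pcdh8, 0 of 26 probesets passed by limma, with 6 at an unadjusted p under 0.05, all lower. These belonged to Pcdh10, Pcdh19, Pcdh20 and Pcdhb21 only, with Pcdh19 and Pcdh20 each counted at more than a single probeset. Over all tested probesets 13.9% were lower and 8.64% higher at that unadjusted p. Apart from Pcdh8 the log2 changes ran from -0.59 to 0.21.

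Of the 9 delta protocadherins on the array 7 were tested, at 17 probesets, with 4 above 0 and 13 below. At the brightest probeset of each gene, 3 genes lay above 0 and 4 below. Pcdh8 alone among them passed. Pcdh19, whose human counterpart is an epilepsy gene on the X chromosome, read 2546 and 2369.8 in control, against 2067 and 2059 with fluoxetine at 1455145_at (log2 -0.25 ± 0.07, adjusted p = 0.147). Its second probeset gave the same size of difference (2011 and 1743 against 1550.4 and 1591, log2 -0.25 ± 0.09, adjusted p = 0.210), and the third gave -0.16 ± 0.16 with overlapping groups. Pcdh10, which acts in activity-dependent synapse elimination, was lower at all 4 tested probesets. At 1438134_at it read 665 and 738 in control, against 483 and 553 with fluoxetine (log2 -0.44 ± 0.10, adjusted p = 0.109), while the other 3 lay between -0.18 and -0.13. The 3 probesets of Pcdh9 lay between -0.17 and -0.10 and the 2 of Pcdh11x at -0.12 and -0.19. Pcdh17 was at 0.02 and -0.03 and Pcdh7 at 0.12 ± 0.14, none past the threshold. Pcdh1 and Pcdh18 were not above the minimum on any array.

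Pcdh20, a protocadherin outside the clusters, had the lowest log2 changes of the tested protocadherins. It read 332 and 248 in control, against 192 and 190.1 with fluoxetine at 1451454_at (log2 -0.59 ± 0.15, adjusted p = 0.125). At 1424701_at it read 1462 and 1123 against 994 and 892 (log2 -0.44 ± 0.15, adjusted p = 0.181). Groups did not overlap at either probeset, but control pool 1 stood well above control pool 2 at both. Without control pool 1 the change was -0.38 at 1451454_at and -0.25 at 1424701_at. Pcdh15, the second tip-link protein of hair cells, read 171 and 241 in control, against 209 and 265 with fluoxetine (log2 0.21 ± 0.21, adjusted p = 0.579), with overlap.

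Clustered protocadherins were represented by 29 probesets of 23 genes, of which 8 genes were tested at 1 probeset each: Pcdhb3, Pcdhb7, Pcdhb9, Pcdhb12, Pcdhb16, Pcdhb17, Pcdhb20 and Pcdhb21. Their log2 changes lay between -0.24 and 0.11, 3 above and 5 below 0, with a median of -0.03. By limma 0 passed, with 1 at an unadjusted p under 0.05. That was Pcdhb21, at 120.3 and 110.2 in control, against 92.7 and 103 with fluoxetine (log2 -0.24 ± 0.09, adjusted p = 0.214). Pcdhb17 read 219 and 255 in control, against 219.9 and 192 with fluoxetine (log2 -0.20 ± 0.11, adjusted p = 0.368), with overlap. Pcdhgc4, the only gamma cluster gene among the members, was under 100 on all arrays (88.1 and 74.7 in control, 67.9 and 61.7 in fluoxetine pools). The 6 alpha cluster probesets with several symbols gave 3 tested ones between -0.18 and -0.03, none past the threshold. These genes are near-identical in parts, so single names of clustered genes are uncertain.

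The giant cadherins were tested at 6 probesets of 5 genes (Fat1, Fat3, Fat4, Celsr2 and Celsr3). All 6 lay below 0 with groups that did not overlap, and the median log2 change was -0.21. Over all tested probesets 34.2% were lower without overlap. Apart from Fat4, none of them passed by limma, with 1 other probeset at an unadjusted p under 0.05. That was Celsr3, required for the growth of major forebrain axon tracts, at 436 and 412 in control, against 365 and 340.4 with fluoxetine (log2 -0.27 ± 0.08, adjusted p = 0.146). Fat3, which shapes neuronal dendrites, read 910.5 and 1102 against 875 and 827 (log2 -0.24 ± 0.11, adjusted p = 0.298). Fat1 read 383 and 379.5 against 321 and 352 (log2 -0.18 ± 0.08, adjusted p = 0.255). Celsr2 read 1506 and 1431 in control, against 1393 and 1389 with fluoxetine, at its brighter probeset (log2 -0.08 ± 0.07, adjusted p = 0.546). Its other probeset gave -0.14 ± 0.09. Fat2, a cerebellar granule cell gene, lay between 6.39 and 6.71, and Celsr1 between 17.0 and 41.4.

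**Figure D3:**
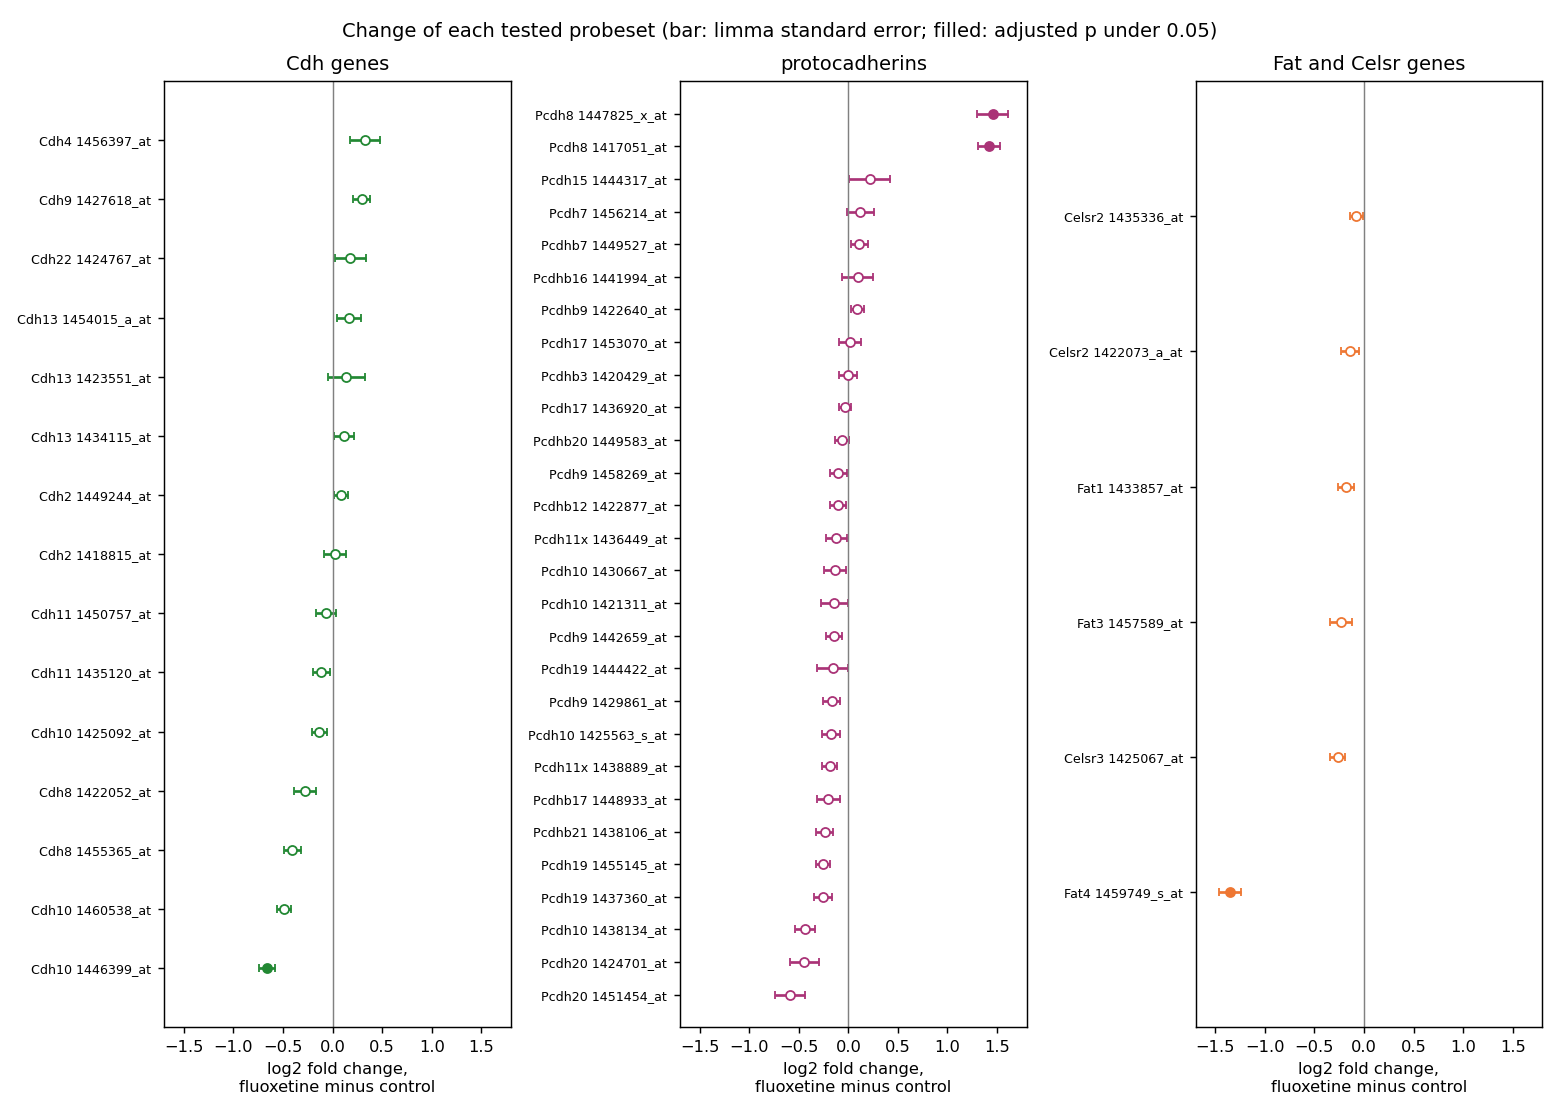
Log2 fold change (horizontal axis, fluoxetine minus control) with limma standard error for each of the 49 tested probesets of Cdh genes (15), protocadherins (28) and Fat and Celsr genes (6). Filled points passed an adjusted p of 0.05: 2 for Pcdh8 on the right, and 1 each for Cdh10 and Fat4 on the left.

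Probesets of 1 gene share its transcripts and are no replicates of each other. Of the 13 genes with more than 1 tested probeset (32 probesets), 12 had all of them on the same side of 0, the exception being Pcdh17. Of the 49 tested probesets, 46 reached 100 on all 4 arrays, 2 on 3 arrays (Cdh4 and Pcdhb21) and 1 on 2 (Cdh10 1446399_at). Of the 62 that were not tested, 61 reached 100 on 0 arrays and 1 on a single array, a Cdh4 probeset at 80.6 and 78.2 in control, against 86.5 and 107 with fluoxetine. Most of the untested, 45, were under 20 on all arrays. Groups did not overlap at 31 of the 49 (6 higher and 25 lower), or 63.3%, beside 56% of all tested probesets (21.9% higher and 34.2% lower).

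Genes known to work with cadherins were counted from fixed lists, each gene at its brightest tested probeset, where over all 9030 genes 1.31% rose and 0.554% fell. Of 4 tested catenins, which link classical cadherins to actin, 0 passed by limma, with 2 higher at an unadjusted p under 0.05 and a list median of 0.05. Ctnnb1, beta-catenin, read 11809 and 11587 in control, against 13379 and 13430 with fluoxetine (log2 0.20 ± 0.06, adjusted p = 0.179), and Ctnna1 gave 0.20 ± 0.06 (adjusted p = 0.171). Of 11 adherens junction adaptors 0 passed (2 higher and 1 lower unadjusted, median -0.04), with Iqgap1, an actin scaffold, at 0.50 ± 0.13 (adjusted p = 0.131). Of 6 tested proteases that cut cadherins 0 passed (1 higher unadjusted, median 0.05), with Adam10, the main N-cadherin sheddase, at 0.10 ± 0.08. The 1 higher unadjusted was Psenen, also the largest change of this list (log2 0.24 ± 0.08, adjusted p = 0.175). The 10 genes of protocadherin signalling and the actin-regulating WAVE complex gave 0 calls (1 higher unadjusted, median -0.01), Fyn being the largest at 0.32 ± 0.09 (adjusted p = 0.149). Taok2, the kinase through which Pcdh8 acts on N-cadherin, was under 100 on all arrays.

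The 10 tested regulators of the clustered protocadherin genes gave 0 calls by limma (3 lower unadjusted) and all lay below 0, with a median of -0.15. Stag1, a cohesin subunit, was at -0.45 ± 0.07 (adjusted p = 0.0600) and Ctcf, the DNA-looping factor that selects cluster promoters, at -0.25 ± 0.08 (adjusted p = 0.167). Of 17 tested genes of the Fat and Hippo pathway, 14 lay above 0 and 3 below, 0 passed (3 higher and 2 lower unadjusted), and the median was 0.11. Over all tested probesets, which were not reduced to 1 per gene as the list was, 58.7% lay below 0. Lix1 was at 0.62 ± 0.15 (adjusted p = 0.116), Amotl1 at 0.60 ± 0.09 (adjusted p = 0.0601), Wwtr1, the Hippo effector TAZ, at 0.53 ± 0.22 (adjusted p = 0.252), and Frmd6 at 0.48 ± 0.14 (adjusted p = 0.158). In the other direction, Atn1 was at -0.46 ± 0.07 (adjusted p = 0.0558), with both fluoxetine pools under 100, and Wwc1 at -0.28 ± 0.10 (adjusted p = 0.187). The 6 planar polarity partners of Celsr gave 0 calls (1 lower unadjusted, median 0.04), with Scrib at -0.28 ± 0.07 (adjusted p = 0.117). Of 5 tested other cadherin superfamily genes (median -0.11), Ret rose. This receptor tyrosine kinase with cadherin-like domains read 72.1 and 68.8 in control, against 165 and 219 with fluoxetine, at least 1.90-fold against the minimum of 100 (adjusted p = 0.0380), and was tested only because its fluoxetine pools passed that minimum. The calsyntenins Clstn1, Clstn2 and Clstn3 did not pass (-0.11, 0.10 and -0.22). Of 3 tested desmosomal plaque genes (median -0.32), which anchor desmosomal cadherins, Dsp fell, from 880.4 and 602 to 246 and 179 (log2 -1.79 ± 0.24, adjusted p = 0.0495). That median is the value of Perp, which did not pass. Perp read 104 and 101 in control, against 95.1 and 71.4 with fluoxetine, and was tested only through its control pools. Dsp is also on the list of hippocampal neuron markers, so both lists count the same probeset. The desmosomal cadherins Dsc1, Dsc2, Dsc3, Dsg1a and Dsg1b were not tested, and Dsg2 did not pass (log2 -0.20 ± 0.25, adjusted p = 0.674).

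**Figure D4:**
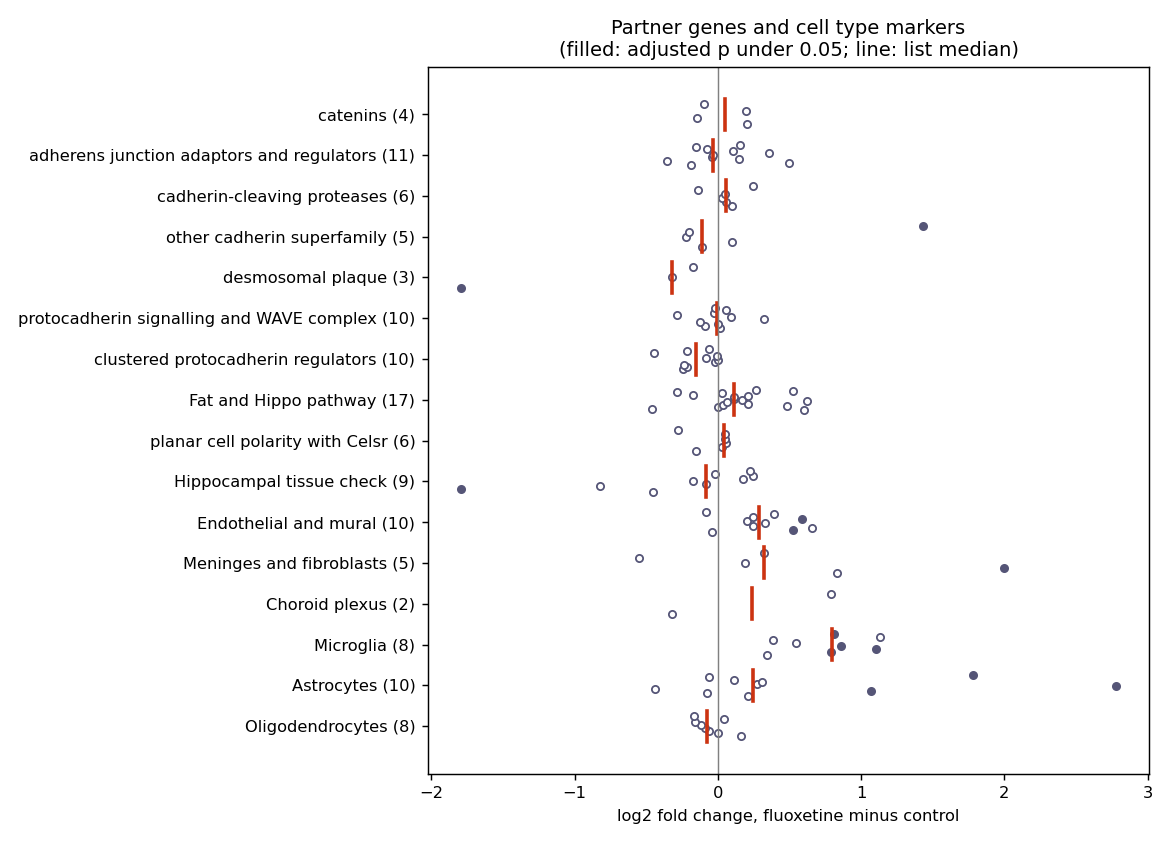
Log2 fold change (horizontal axis, fluoxetine minus control) of each tested gene on the fixed partner and cell type lists, with the number tested in brackets; filled points passed an adjusted p of 0.05 and the red line is the list median. Among the partner lists only Ret rose and only Dsp fell, while microglial markers lie to the right of 0. The same Dsp probeset is also plotted among the hippocampal markers.

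Measures of the arrays and of other cells moved with the groups too. All 9 hippocampal neuron markers were measured, and of these Dsp fell, with 1 higher and 3 lower at an unadjusted p under 0.05. Calb1, a calcium buffer of granule cells, read 5157 and 4876 in control, against 3488 and 3843 with fluoxetine (log2 -0.45 ± 0.08, adjusted p = 0.0771). Fibcd1 was at -0.82 ± 0.25 (adjusted p = 0.162). Slc17a7 was at 0.25 ± 0.08 (adjusted p = 0.172) and Prox1, also a granule cell marker, at 0.17 ± 0.26 (adjusted p = 0.728). Of the 9 markers 3 lay above 0 and 6 below, so the list did not move in a single direction. Of 8 tested microglia markers 4 rose and 0 fell, and the summed intensity of the whole list, untested members included as for the sums that follow, was 4133 to 4186 in control and 6751 to 6999.7 in fluoxetine pools. Of 10 astrocyte markers 3 rose (Gfap, Vim and Aqp4) and 0 fell (sums of 68628 to 70986 and 82950 to 84459). Among the 10, 7 lay above 0 and 3 below, with 4 higher and 1 lower unadjusted. The lower one was Fgfr3 (log2 -0.44 ± 0.10, adjusted p = 0.110). Of 10 endothelial and mural markers 2 rose and 0 fell (6306 to 6339 and 8055 to 8074), with Kdr and Pecam1 under 10 on all arrays. Of 5 tested meningeal markers 1 rose (sums of 2487 to 3368 and 3397 to 3423), Col3a1, which was under 100 in both control pools and was tested only through its fluoxetine pools. Of 8 oligodendrocyte markers 0 changed by limma, with 1 lower unadjusted (sums of 60082 to 60386 and 57331 to 57687). The choroid plexus sum followed the pool number, with 38080 and 2107 in control pools 1 and 2 and 51407 and 4531 in fluoxetine pools 1 and 2. All 18 hybridisation spike-in probesets were higher in both fluoxetine arrays, by a median log2 of 0.36. Median intensity over all probesets was 22.6 to 23.3, and 47 to 49 family probesets per array reached 100. The part of these shifts in the changes of Pcdh8, Fat4 and Cdh10 was not tested, and a batch that followed the groups cannot be told apart from fluoxetine.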

How the data were processed

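The authors deposited 1 linear intensity per probeset and array, made with ArrayAssist's GCRMA, per the labels, with no version given in the sources used here. GCRMA pulls dim probesets towards a floor. Genes were named from the platform annotation table, and all 111 member probesets matched the reference table by gene number, with 0 symbols changed. Intensities were taken to log2 with no pseudocount. Of 45101 probesets 64 array controls were left out, and 16938 reached 100 on at least 2 of 4 arrays and were tested. The difference between fluoxetine and control pools was fitted in R 4.3.3 by limma 3.58.1 (lmFit, eBayes, two-sided, without covariates). Its p-values were adjusted by Benjamini-Hochberg across the whole tested table, and 0.05 was the threshold. The script was tested on simulated data. An exact permutation test of 2 against 2 pools cannot give a p under 0.333. Errors are limma standard errors, and the number of arrays limits the precision. With all arrays of a group under 100, a fold is a bound against 100. Subclasses within the family follow textbook names.

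The members and lists were chosen with earlier results of these data known. Any member gene with a tested probeset could be named. Full values were given for genes with a call and for the 6 largest absolute changes per class at the brightest probeset, all tested probesets of a gene were compared, and up to 4 genes per list were named. A few more were named after their values were seen (Cdh2, Cdh11, Pcdh10, Atn1, Wwc1, Prox1, Dsg2 and the dim genes among them). Alternatives tried were quantile normalization or median centring, a floor or a pseudocount, other filters on intensity, the pool number as a block, trend and robust eBayes, dropping each array or the probesets named for multiple matches, and the submitters' 2-fold rule.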

Additional observations from a re-analysis of the deposited data

How the results depend on the processing

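The rise of Pcdh8 and the falls of Fat4 and Cdh10 kept their direction under every alternative that gave a value. For most alternatives this was fixed in advance. Filters, block and eBayes settings leave the log2 change as it was, and the groups do not overlap, so no dropped array, floor or pseudocount can turn its sign. Quantile normalization and median centring could have: they gave 1.41 to 1.48 for the Pcdh8 probesets, -1.32 for Fat4, and -0.62 and -0.63 for Cdh10. Of the 2 family probesets higher and 2 lower, limma called 0 and 0 with no intensity filter (13 at an unadjusted p under 0.05), 0 and 0 with the pool number as a block (12), and 0 and 0 with any array left out (10 to 16). Without probesets that can match several transcripts the counts were 1 and 1. Lower calls numbered 1 with 100 required on all 4 arrays, with a mean of at least 100, with values floored at 100 and by the 2-fold rule without a test. The share of all tested probesets called was 1.72%, and 0% with no filter (5396 at an unadjusted p under 0.05) or any array left out (2657 to 3515), 0.0531% with the block, 3.14% with trend and robust settings and 0.791% by the 2-fold rule. Deviations of same-numbered pools correlated at 0.139, which with 2 pairs does not establish that the numbers pair the pools. With the block, adjusted p was 0.0904 for Fat4, 0.0904 and 0.114 for the Pcdh8 probesets and 0.104 for Cdh10. With trend and robust settings Cdh10 lost its call at 1446399_at and gained one at 1460538_at, so that lower calls again numbered 2.

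The median log2 change of the giant cadherins was -0.18 with quantile normalization, -0.18 with median centring, -0.20 with a pseudocount of 32 and -0.23 to -0.15 with each array left out. That of the protocadherins was -0.0025 with no filter and -0.16 to -0.070 with each array left out, and that of the Cdh genes -0.079 to 0.12. Pcdhb3, near 0, turned to 0.044 with quantile normalization and 0.024 with median centring. Leaving out each array changed the sign of values that had not passed, with ranges of -0.17 to 0.034 for Cdh11, -0.12 to 0.40 for Cdh13, -0.079 to 0.13 for Cdh2, -0.038 to 0.39 for Cdh22, -0.035 to 0.46 for Pcdh15, -0.091 to 0.13 for Pcdh17, -0.37 to 0.056 for Pcdh19 (1444422_at), -0.038 to 0.28 for Pcdh7, -0.091 to 0.28 for Pcdhb16 and -0.10 to 0.093 for Pcdhb3. The cause of these changes was not tested.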

Other observations

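Several members share a chromosome in the reference gene table, and their order among its protein-coding genes is given here beside their values. Distances in bases were not measured, so genes next to each other in this order may still lie far apart. Pcdh8, Pcdh17, Pcdh20 and Pcdh9 follow each other on 1 chromosome, with 1 other protein-coding gene between Pcdh8 and Pcdh17, 2 between Pcdh17 and Pcdh20 and 0 between Pcdh20 and Pcdh9. Pcdh8 rose (log2 1.46 at its brightest probeset), whereas Pcdh17 (0.02), Pcdh20 (-0.44) and Pcdh9 (-0.17) did not pass. Cdh9 and Cdh10 are adjacent, with 0 protein-coding genes between them, and stood at 0.30 and -0.14 at their brightest probesets, neither past the threshold there. Cdh8 and Cdh11 are likewise adjacent and stood at -0.28 and -0.07. Fat4 and Pcdh10 share a chromosome with 12 protein-coding genes between them, and stood at -1.35 and -0.13. These pairs were chosen after their values were seen, and no difference between neighbours was tested.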
